A study of Mus musculus with 60 samples.

Results

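The genes described here encode the proteins of the cytosolic ribosome. They were chosen by symbol from the RefSeq table of the mouse assembly GRCm38: protein-coding genes named Rpl or Rps followed by a number, with Rpsa, Rplp0, Rplp1 and Rplp2, and without the Rps6k kinases and the Rps19bp genes. The rule finds 90 of 21887 protein-coding genes on chromosomes 1 to 19, X and Y. No measured value entered the choice. Of the 90, 77 are the core genes, 31 for the small and 46 for the large subunit, and 13 are paralogs or retrocopies that carry such a symbol: Rpl3l, Rpl7l1, Rpl10l, Rpl22l1, Rpl31-ps12, Rpl32l, Rpl34-ps1, Rpl36al, Rpl37rt, Rpl39l, Rps23rg1, Rps27l and Rps27rt.

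The tissue was the dorsal root ganglion of lumbar levels L4 to L6 from C57BL/6 mice aged 6 to 8 weeks, taken 24 hours after surgery. The 4 surgeries were cutting of the sciatic nerve (SNA) with its sham operation (Sham), and cutting of the spinal dorsal columns (DCA) with its control, opening of the vertebral arch alone (Lam). All groups were of the same strain and age, and the labels name no genotype or drug. H3K9ac, H3K27ac and H3K27me3 were each profiled by chromatin immunoprecipitation in 2 samples per surgery, each a pool of 10 mice with its own input, and open chromatin by ATAC-seq in 3 samples per surgery of 1 mouse each. The ganglia were whole, so neurons, satellite glia, Schwann cells and other cells are mixed. A difference in the number of cells of a type and a difference in chromatin per cell cannot be told apart.

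The deposited data are 16 lists of peaks, 1 for each assay and surgery, made by the authors from the pooled replicates. No list has a replicate error, so the values below carry no standard deviation and no test between surgeries. The narrow lists hold 43803 to 75824 peaks for H3K27ac, 50332 to 89647 for H3K9ac and 153556 to 174605 distinct intervals for ATAC, and the broad H3K27me3 lists hold 90011 to 154055. The background pile-up recovered from the peaks' own fold and p-values, a measure of depth in the authors' scaled units, was 1.68 for H3K9ac Sham, 2.08 for SNA, 3.04 for Lam and 5.2 for DCA. Before that scaling the 4 H3K9ac values lay between 4.98 and 5.67. For H3K27ac the scaled value was 2.91 (Sham), 2.34 (SNA), 3.08 (Lam) and 2.11 (DCA), and for ATAC it lay between 16.19 and 18.38. As a check of the tissue, all 8 sensory neuron genes looked up had an ATAC peak at a gene end in all 4 lists, whereas 2 of the 8 had an H3K9ac peak in any list. Of 6 genes of satellite glia and Schwann cells, 4 had ATAC peaks and 4 had H3K9ac peaks in every list, and 2 of 4 genes of other tissues (Myod1 and Neurod6) also had ATAC peaks in every list.

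Each ribosome joins 1 copy of nearly every ribosomal protein to the ribosomal RNAs, so the genes are transcribed together and strongly in growing cells. Their mRNAs start with a C and a run of pyrimidines, the 5′ terminal oligopyrimidine (TOP) motif, through which mTORC1 and the RNA-binding protein LARP1 control their translation. In sensory neurons ribosomal protein mRNAs are also carried into axons, and a peripheral axon regrows after a cut whereas a central axon in the dorsal column hardly does. H3K9ac and H3K27ac are acetylation marks of active promoters, H3K27me3 is the mark that Polycomb lays on repressed genes, and ATAC-seq shows DNA open to a transposase.

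Promoter sequences of 300 bases (250 before the annotated start and 50 after it) were available for 69 of the 90 members, 57 of them core, from RefSeq on GRCm38.p6. The start of a promoter sequence is not always the gene boundary from which peak positions are measured below. At Rpl18, Rpl19 and Rpl38, for example, it lies inside that boundary. A run of at least 8 pyrimidines that holds CTT and lies at least partly within 20 bases of the start was found in 27 of 57 core promoters (47.4%), beside 13.4% of all 17492 promoters of protein-coding genes and 15.9% of the 69 promoters of mitochondrial ribosomal protein genes. A C exactly at the annotated start followed by 4 more pyrimidines stood in 12 core promoters (21.1%), beside 2.17% of all promoters and 0 of the 69 mitochondrial ones. Both were read on the gene's strand. The stretches below run from 60 bases before the annotated start to 20 bases from it onward, 5′ to 3′ on the gene's strand, with that pyrimidine run in capitals. The first 6 are core genes with a run, including members whose peaks are described below, followed by the 4 core genes on the X chromosome and 2 retrocopies without acetylation peaks.
Rps6 (chr4:86857348-86857427, minus strand): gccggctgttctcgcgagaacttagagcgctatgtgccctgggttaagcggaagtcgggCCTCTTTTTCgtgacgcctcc
Rplp2 (chr7:141447591-141447670, plus strand): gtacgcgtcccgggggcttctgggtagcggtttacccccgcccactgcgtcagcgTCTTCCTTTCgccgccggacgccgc
Rps10 (chr17:27635225-27635304, minus strand): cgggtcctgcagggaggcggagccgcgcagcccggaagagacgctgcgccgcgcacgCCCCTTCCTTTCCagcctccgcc
Rpl14 (chr9:120571457-120571536, plus strand): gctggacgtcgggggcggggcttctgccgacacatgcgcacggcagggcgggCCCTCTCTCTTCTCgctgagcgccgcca
Rpl38 (chr11:114668520-114668599, plus strand): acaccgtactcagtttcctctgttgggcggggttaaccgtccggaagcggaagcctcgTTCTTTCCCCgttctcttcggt
Rpl27a (chr7:109519135-109519214, plus strand): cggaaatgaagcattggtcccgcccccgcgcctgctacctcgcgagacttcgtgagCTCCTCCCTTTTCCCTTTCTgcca
Rps4x (chrX:102189372-102189451, minus strand): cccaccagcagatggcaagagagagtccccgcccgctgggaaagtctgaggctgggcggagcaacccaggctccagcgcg
Rpl36a (chrX:134585594-134585673, plus strand): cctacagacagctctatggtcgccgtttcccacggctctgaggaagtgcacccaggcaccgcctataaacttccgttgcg
Rpl39 (chrX:37085203-37085282, minus strand): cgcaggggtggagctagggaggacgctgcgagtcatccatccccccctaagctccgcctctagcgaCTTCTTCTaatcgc
Rpl10 (chrX:74270756-74270835, plus strand): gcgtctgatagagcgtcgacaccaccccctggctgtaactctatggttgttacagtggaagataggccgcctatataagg
Rpl10l (chr12:66284382-66284461, minus strand): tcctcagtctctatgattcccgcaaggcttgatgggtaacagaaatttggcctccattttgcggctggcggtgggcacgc
Rpl39l (chr16:10170168-10170247, plus strand): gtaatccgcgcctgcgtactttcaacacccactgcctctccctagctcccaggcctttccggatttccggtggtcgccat

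Among these, the run of Rpl27a was the longest at 20 bases, that of Rpl14 had 14, that of Rps10 had 13, and those of Rps6, Rplp2 and Rpl38 had 10 each. Of the 4 X-linked core genes, Rpl39 alone had such a run, of 8 bases, which began 6 bases after the annotated start. Further motifs were searched as fixed letters on both strands of the 300 bases. The ETS motif CCGGAAG stood in 23 of 57 core promoters (40.4%), beside 34.8% of the mitochondrial ribosomal protein promoters and 11.9% of all. The Sp1 motif GGGCGG stood in 59.6% of core promoters (46.3% of all), TATAA in 28.1% (22.8%) and the YY1 motif AAGATGGC in 8.77% (3.21%). The NRF1 motif was found in 1.75% (1.33%). Of the 12 paralog and retrocopy promoters, 4 held the pyrimidine run and 2 the ETS motif. A match is a run of letters and was not tested as a binding site.

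A gene was counted as having a gene-end peak where at least 1 base of a peak lay within 1 kb of either annotated end. Of the 3 activity assays, nearly every core gene had one in each ATAC list, and most had one in each H3K9ac and H3K27ac list. In ATAC, 75 of 77 core genes had a peak after Sham, 75 after SNA, 74 after Lam and 75 after DCA, beside 69.4%, 71.2%, 69.5% and 70.7% of all protein-coding genes. In H3K9ac the counts were 71 after Sham, 74 after SNA, 70 after Lam and 74 after DCA, beside 49.1%, 50.6%, 49.7% and 59.3% of all genes. In H3K27ac they were 62, 72, 74 and 60 in the same order, beside 40.3%, 50.9%, 50.9% and 42.7% of all genes. ATAC was thus nearly constant across the surgeries, while H3K27ac had its lowest counts after Sham and DCA, the same 2 lists that were lowest over all genes.

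Taken by gene, 74 of the 77 core genes had an ATAC peak in all 4 lists (all genes 61.9%), 64 an H3K9ac peak in all 4 (41.9%) and 52 an H3K27ac peak in all 4 (32.1%). Of the core genes, 49 (63.6%) had a peak in all 12 of these lists, beside 27.5% of all genes. The large subunit reached 31 of 46 genes and the small subunit 18 of 31. No core gene lacked a peak in all 12 lists. The exceptions in ATAC were Rps2, whose only peak was of 475 bp after Sham, Rps4x, which had peaks of 399 bp after SNA and 412 bp after DCA, and Rpl17, which had none.

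**Figure D1:**
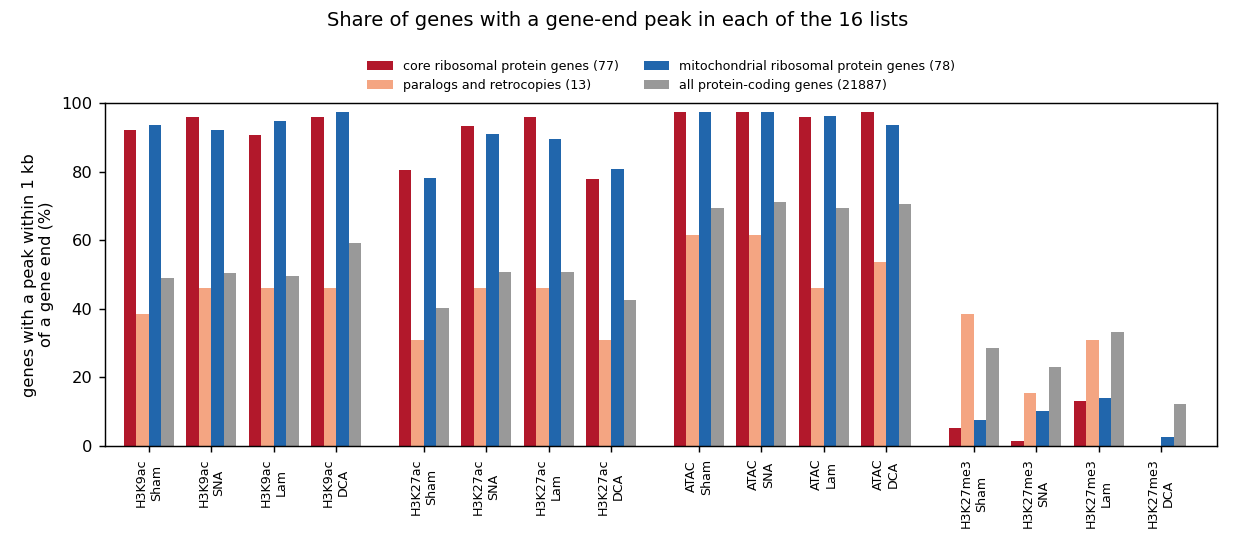
Share of genes with a peak within 1 kb of a gene end (vertical axis, percent) in each of the 16 lists, for core ribosomal protein genes, their paralogs and retrocopies, mitochondrial ribosomal protein genes and all protein-coding genes; each bar is 1 list of pooled replicates, so there is no error bar. The core genes stand at 77.9% to 97.4% in the H3K9ac, H3K27ac and ATAC lists and at 0 to 13% in H3K27me3.

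Other genes of the translation machinery gave like counts. The 78 mitochondrial ribosomal protein genes, which serve the separate ribosome of the organelle, had a peak in all 12 lists in 51 cases (65.4%). So had 14 of the 21 other translation genes known for TOP mRNAs, such as elongation factors and Npm1, and 14 of 25 ribosome assembly genes, such as Ncl and Fbl. Counted over gene and list pairs, 92.6% of core pairs, 91.9% of mitochondrial ribosomal, 94.4% of TOP-type and 90.3% of assembly pairs held a peak, against 56.2% over all genes. All 4 groups stood above the share of all genes, and the core ribosomal protein genes lay between the other groups.

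The repressive mark lay at few members. An H3K27me3 interval lay at a gene end of 4 core genes after Sham, 1 after SNA, 10 after Lam and 0 after DCA, beside 28.6%, 23%, 33.4% and 12.3% of all genes. A q-value of at most 0.05 left 0 of the 90 members, but also few genes of any kind: 0.361% of all genes after Sham, 0.0685% after SNA, 0.187% after Lam and 0% after DCA. Rps23rg1, a retrocopy, was covered in 3 lists, and the retrocopies Rpl39l and Rps27rt in 2 each, with a fold of 1.38 or less in every case. Between lists, 2 members had an interval only after SNA and 8 only after Sham (all genes 9% and 14.6%), 0 only after DCA and 14 only after Lam (3.48% and 24.6%), and 10 only after Lam and 5 only after Sham in the pair of those controls (14.7% and 9.89%).

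The peaks took a fixed place relative to the start, taken here as the gene boundary on the 5′ side. For the 57 core genes whose strand is in the promoter table, an ATAC peak covered the annotated start in 93% of genes in each of the 4 lists, beside 53.4% to 55.7% of all genes. H3K9ac covered the start itself in 26.3% of core genes after Sham, 17.5% after SNA, 14% after Lam and 38.6% after DCA. It was most frequent 250 to 400 bp into the gene, where it covered 82.5% of core genes after Sham, 89.5% after SNA, 84.2% after Lam and 91.2% after DCA. H3K27ac covered the start in 33.3%, 24.6%, 26.3% and 19.3% of core genes in the same order. Its highest coverage was 80.7% after SNA, 82.5% after Lam and 59.6% after DCA, each at 350 bp into the gene, and 45.6% after Sham at 550 bp before it. The acetylated intervals thus flanked the open stretch at the start on both sides. At the far end of the gene no narrow list covered more than 1.75% of core genes.

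**Figure D2:**
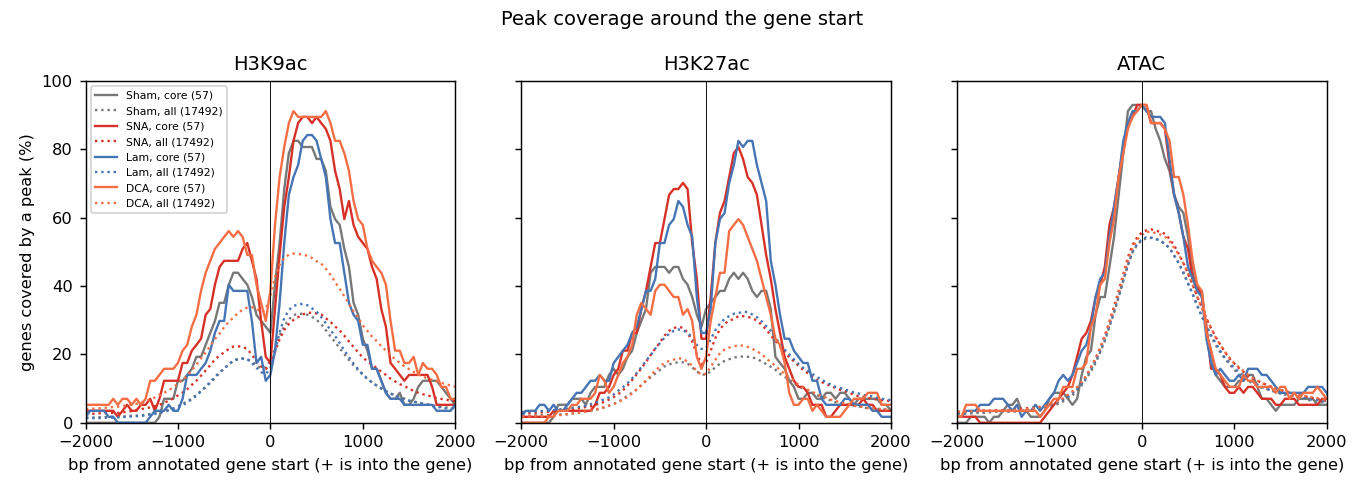
Percent of genes covered by a peak (vertical axis) against distance from the annotated gene start in bp (horizontal axis, positive into the gene), for 57 core ribosomal protein genes (solid) and all 17492 protein-coding genes with a strand (dotted), 1 line per surgery. ATAC coverage of the core genes reaches 93% at the start, where H3K9ac and H3K27ac coverage dips to between 14% and 38.6%.

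Single peaks showed the same layout. Over the 4 lists, the strongest ATAC peak at a core gene (the one with the highest −log10 p) covered the start in 202 of 223 cases. The strongest H3K9ac peak lay wholly inside the first part of the gene in 129 of 214 cases and upstream in 33. For H3K27ac these were 77 and 68 of 202 cases, and it covered the start in 47. Within their own lists these were strong peaks for ATAC and H3K9ac. The median percentile by −log10 p was 95.5 to 96.2 in ATAC, close to the medians for all genes with a gene-end peak (94.6 to 95.2). In H3K9ac the core median was 91.4 after Sham, 94.5 after SNA, 89.9 after Lam and 92.6 after DCA. For all genes with an H3K9ac peak it was lower, with 84, 85.5, 83 and 91.1 in the same order. For H3K27ac the core median was 55.9 after Sham, 87.6 after SNA, 77.5 after Lam and 66.7 after DCA, beside 59.8, 85.9, 79.1 and 68.5 for all genes.

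The median width of the widest gene-end peak of core genes was 775 bp after Sham, 937 bp after SNA, 697.5 bp after Lam and 1104 bp after DCA in H3K9ac. Over all genes with a peak the medians were 709, 800, 676 and 1194 bp. In H3K27ac the core medians were 712, 703.5, 692.5 and 658 bp in the same order (all genes 702, 701.5, 828 and 652 bp), and in ATAC 909, 1003, 968.5 and 1000 bp (all genes 947, 986, 948 and 1000 bp). The H3K9ac widths were greatest in DCA, both for core and for all genes. That list had the highest background pile-up (5.2). Lam, with the narrowest core median, had a pile-up of 3.04, Sham 1.68 and SNA 2.08. The part of depth in these widths was not tested.

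For core genes with a peak in both lists of a pair, widths could be compared gene by gene. In H3K9ac, 47 of 69 were wider after SNA than after Sham (68.1%, beside 64.6% of all genes), with a median log2 width ratio of 0.19 for core and 0.19 for all genes. After DCA, 62 of 69 were wider than after Lam (89.9%, beside 92.3%), with a median log2 ratio of 0.79 (all genes 0.88). Between the surgeries without axotomy, 23 of 66 were wider after Lam than after Sham (34.8%, beside 47%). In H3K27ac, 38 of 60 were wider after SNA than after Sham (63.3%, beside 58%) and 28 of 59 were wider after DCA than after Lam (47.5%, beside 27.3%). The median log2 ratio of the latter was -0.12 for core genes and -0.40 for all genes. In ATAC, 46 of 74 were wider after SNA (62.2%, beside 56.9%) and 36 of 74 after DCA (48.6%, beside 57.4%). Between Lam and Sham, 36 of 61 were wider after Lam in H3K27ac (59%, beside 69%) and 45 of 74 in ATAC (60.8%, beside 50%). Of these shares, the one for H3K27ac after DCA against Lam lay farthest from that of all genes. The H3K27ac median widths of core and all genes stood further apart after Lam (692.5 and 828 bp) than after DCA (658 and 652 bp). Other translation genes gave like values for DCA against Lam in H3K27ac. There, 41.7% of mitochondrial ribosomal protein genes were wider after DCA (median log2 ratio -0.13), as were 44.4% of assembly genes (-0.09) and 33.3% of TOP-type genes (-0.25).

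**Figure D3:**
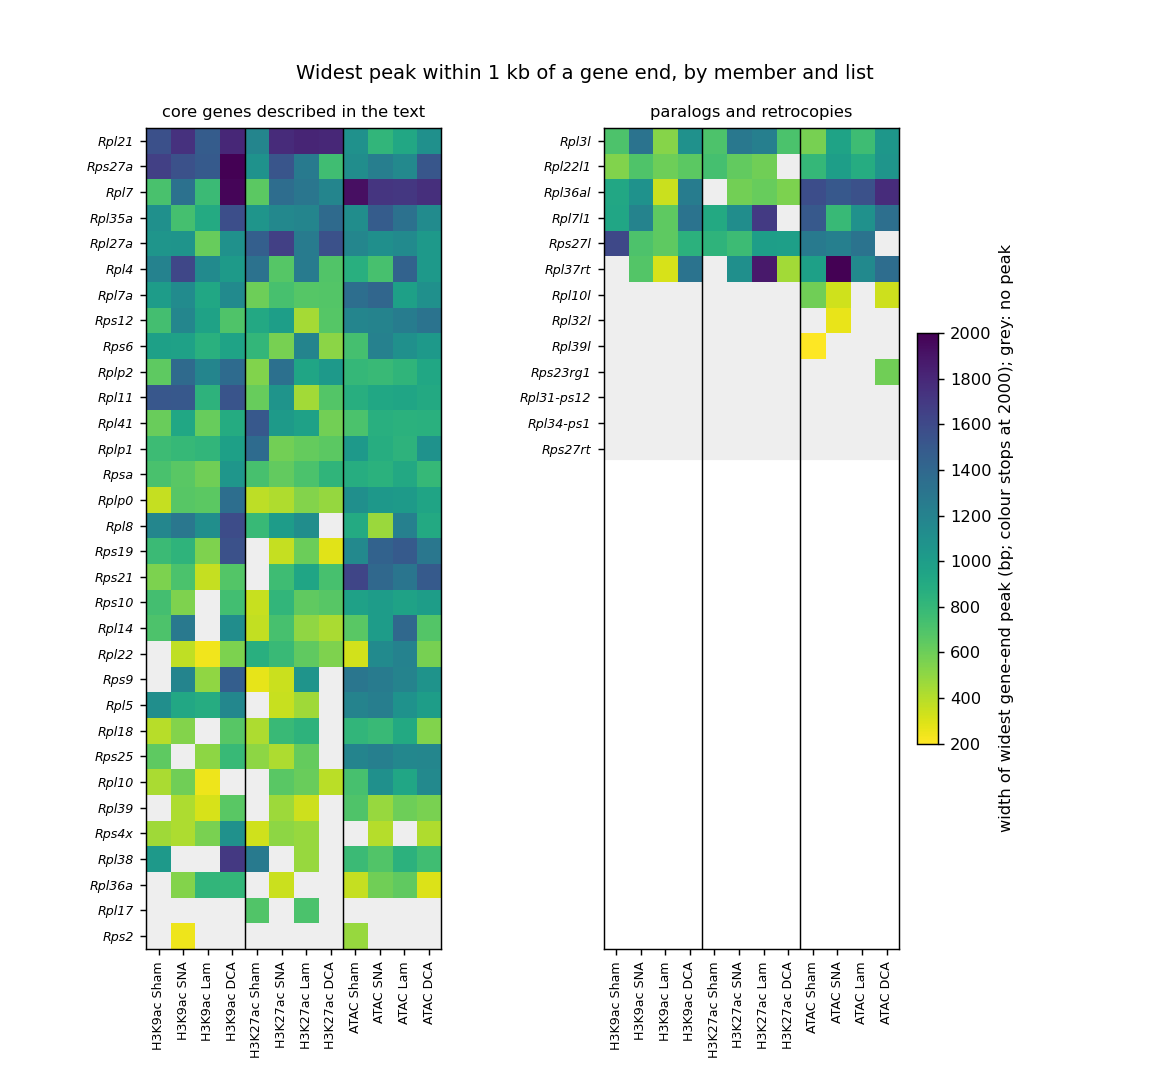
Width of the widest peak within 1 kb of a gene end in bp (colour; the scale stops at 2000 bp, and grey means no peak) for core genes described in the text and the paralogs and retrocopies (rows) in the 12 narrow lists (columns). Rps27a and Rpl21 have acetylation peaks of 749 bp or more in every list, and 7 of the 13 paralogs and retrocopies have no acetylation peak in any list.

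Only 1 member differed the same way in both injuries in ATAC. Rps4x, an X-linked gene for a small subunit protein, had a peak after SNA and DCA and none after Sham or Lam. Both peaks were weak: their −log10 q was 1.09 and 1.12, and they stood at percentiles 3.99 and 9.49 of their lists. This pattern was seen in 1.06% of all genes. In all, 2 members had an ATAC peak after SNA and none after Sham (2.22% of members, beside 5.51% of all genes), namely Rps4x and the retrocopy Rpl32l. The reverse held for Rpl39l and Rps2 (all genes 3.75%). After DCA against Lam, Rpl10l, Rps23rg1 and Rps4x had a peak only after DCA (all genes 4.96%) and Rps27l only after Lam (3.82%). Between Lam and Sham, 0 members had a peak only after Lam (4.76%), and Rpl10l, Rpl39l and Rps2 had one only after Sham (4.66%).

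In H3K9ac, 6 members had a peak after SNA and none after Sham (all genes 5.44%) and 2 the reverse (3.86%). Against Lam, 5 had a peak only after DCA (10.2%) and 1 only after Lam (0.594%), and between Lam and Sham 5 had one only after Lam (5.35%) and 5 only after Sham (4.7%). Read list by list, most of these members lacked a single list, often a control. Rpl22, Rpl36a, Rpl39, Rpl37rt and Rps9 lacked the Sham list only (2.86% of all genes have that pattern). Rpl14, Rpl18 and Rps10 were among those that lacked the Lam list only (2.85%). Rps25 lacked SNA only (2.23%), and Rpl10 lacked DCA only (0.151%). Rpl22, a large subunit gene, had widths of 372 bp after SNA, 237 bp after Lam and 553 bp after DCA. For Rps9, a small subunit gene, they were 1190, 500 and 1461 bp.

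**Figure D4:**
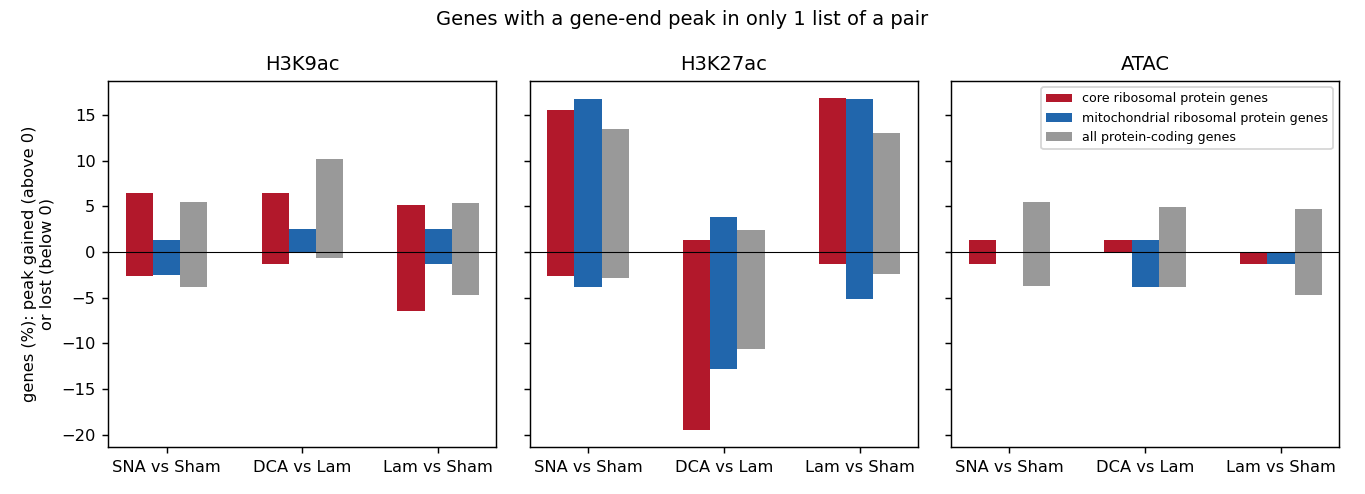
Percent of genes with a gene-end peak in the first list of a pair and none in the second (above 0) or the reverse (below 0), for core ribosomal protein genes, mitochondrial ribosomal protein genes and all protein-coding genes, for 3 pairs of surgeries in 3 assays; each bar compares 2 lists of pooled replicates. In H3K27ac, more genes of each group had a peak only after SNA than only after Sham, and more had one only after Lam than only after DCA.

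In H3K27ac more members differed. After SNA, 14 had a peak that was missing after Sham (15.6% of members, beside 13.5% of all genes) and 2 lacked one (2.83%). Against Lam, 1 had a peak only after DCA (2.4%) and 17 only after Lam (18.9% of members, beside 10.6%). Between Lam and Sham, 15 had a peak only after Lam (16.7%, beside 13%) and 1 only after Sham (2.38%). By pattern, 9 members lacked Sham only (6.43% of all genes): Rpl10, Rpl23, Rpl30, Rpl35, Rpl36al, Rpl37rt, Rps19, Rps21 and Rps29. Another 9 lacked DCA only (4.03%), among them Rpl7l1, Rpl8, Rpl18, Rpl22l1, Rpl28, Rps4x, Rps9 and Rps25. Members with a peak after SNA and Lam but not after Sham or DCA (3.97%) included Rpl5, Rpl39 and Rps20. The Sham and DCA lists were the smallest of the H3K27ac lists. With all 4 lists cut to the same number of strongest peaks, 13 members had a peak only after SNA and 4 only after Sham, 4 only after DCA and 16 only after Lam, and, in the pair of controls, 14 only after Lam and 6 only after Sham. The shares over all genes at this cut are not given here, so these counts have no background to be read against.

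Rpl38 and Rpl17 were the members with an H3K27ac peak in both control lists and in neither injury list, a pattern of 0.749% of all genes. Rpl38 (chr11:114667818-114672333, plus strand) encodes a small protein of the large subunit, and its loss in the Tail-short mouse disturbs the translation of Hox mRNAs. Its H3K27ac peak measured 1262 bp after Sham and 478 bp after Lam, with percentiles of 22.9 and 1.6, so the second is among the weakest of its list. In H3K9ac it had a peak of 1034 bp after Sham and 1699 bp after DCA and none after SNA or Lam. Its ATAC peak was present after every surgery, with 774 bp after Sham, 690 bp after SNA, 843 bp after Lam and 750 bp after DCA. After SNA, Rpl38 thus had neither acetylation peak beside its ATAC peak, while after DCA it had an H3K9ac peak at percentile 95.5. All these peaks of Rpl38 lay inside its annotated span, 336 bp or more from its outer boundary, around the start shown in the sequences above. Rpl17, another large subunit gene, on chromosome 18, had H3K27ac peaks of 689 bp after Sham and 709 bp after Lam, at percentiles 72.9 and 62.1. It had no ATAC and no H3K9ac peak in any list.

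The stalk proteins Rplp0, Rplp1 and Rplp2 form the flexible arm of the large subunit that recruits elongation factors. Rplp0 (chr5:115559467-115563729) had widest ATAC peaks of 1104, 1039, 1021 and 950 bp after Sham, SNA, Lam and DCA. Its strongest ATAC peaks measured 780, 750, 768 and 950 bp in the same order, at percentiles 98.7 to 99.4. Its H3K9ac widths were 358, 669, 656 and 1350 bp in the same order. The first 3 began 104 to 112 bp inside the gene, whereas the DCA value came from a peak 928 bp beyond the far end of the gene, so it does not describe the Rplp0 promoter. Rplp1 (chr9:61913283-61914510) had H3K9ac widths of 765, 794, 817 and 977 bp. Its strongest H3K9ac peaks stood at percentiles 98.2, 99.9, 99.1 and 93, and the one after Lam measured 647 bp. The strongest peak after SNA lay inside the annotated span, whereas those after Sham, Lam and DCA lay beyond its upper coordinate. Rplp1 was among the strongest H3K9ac loci of the members in the first 3 lists. Rplp2 had H3K9ac widths of 644, 1376, 1178 and 1374 bp, and its H3K27ac peak after SNA had a fold of 10.2 over background and percentile 99.8.

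Rps6 (chr4:86854099-86857367, minus strand) encodes the small subunit protein that S6 kinase phosphorylates downstream of mTORC1, a common readout of growth signalling in injured neurons. Its H3K9ac widths hardly varied, with 980 bp after Sham, 968 bp after SNA, 855 bp after Lam and 955 bp after DCA. Its H3K27ac peak had a fold of 24 after Sham, 16.7 after Lam and 21.5 after DCA, at percentiles 99.7, 99.6 and 99.7. After SNA the fold was 5.66 at percentile 92.8. In all 4 lists this strongest H3K27ac peak lay upstream of the start, 494 bp away after Sham, 54 bp after SNA, 91 bp after Lam and 676 bp after DCA. The ATAC peak covered the start after each surgery, with widths of 731, 1206, 1097 and 1036 bp.

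Rpl5 and Rpl11 bind the 5S ribosomal RNA and, when ribosome assembly is disturbed, hold Mdm2 and so stabilise p53. Rpl11 had H3K9ac widths of 1511 bp after Sham, 1502 bp after SNA, 837 bp after Lam and 1531 bp after DCA, and an H3K27ac peak in all 4 lists. Rpl5 had H3K9ac widths of 1114, 922, 888 and 1168 bp. It differed from Rpl11 in H3K27ac, with peaks of 354 bp after SNA and 455 bp after Lam and none after Sham or DCA.

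Rps19, a small subunit gene mutated in Diamond-Blackfan anaemia, had H3K9ac widths of 776, 831, 551 and 1556 bp after Sham, SNA, Lam and DCA. The Lam peak was at percentile 0.432 and the DCA peak at 99.6, so the locus took nearly the whole range of ranks, while its ATAC peak stayed between percentiles 97.1 and 98.4. Rpsa, which encodes a small subunit protein also known as the laminin receptor precursor, had H3K9ac widths of 714, 661, 589 and 1054 bp and H3K27ac widths of 726, 632, 711 and 820 bp. Rpl41, which encodes the smallest ribosomal protein, had peaks in all 12 lists. In 1 H3K9ac list, 3 H3K27ac lists and 2 ATAC lists its strongest peak lay beyond the far end of the gene, and an end of Zc3h10 is within 1 kb of Rpl41.

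The widest H3K9ac intervals, ranked by each gene's smallest width over the 4 lists, were those of Rps27a (1489 to 2035 bp), which encodes a fusion of ubiquitin with a small subunit protein, and of the large subunit genes Rpl21 (1479 to 1797 bp), Rpl8 (1112 to 1581 bp), Rpl4 (1021 to 1618 bp) and Rpl7a (929 to 1141 bp). In H3K27ac they were those of Rpl27a (1251 to 1660 bp), Rpl21 (1182 to 1813 bp), Rpl35a (1064 to 1380 bp), Rps27l (763 to 991 bp) and Rps27a (749 to 1527 bp). In ATAC they were those of Rpl7 (1710 to 1924 bp), Rpl36al (1505 to 1769 bp), Rps21 (1302 to 1624 bp), Rps12 (1182 to 1314 bp) and Rps25 (1165 to 1226 bp). Rps27a and Rpl21 stood in both acetylation rankings, and none of the 5 genes of the ATAC ranking was in either. The widest H3K9ac interval of Rpl4 after Lam (1140 bp) lay wholly beyond the far end of the gene, as did its strongest peak after Sham. Ends of Snapc5 and Zwilch are within 1 kb of Rpl4, so its H3K9ac range does not describe its start alone. Other genes also end within 1 kb of Rps27a, Rpl7a, Rpl35a, Rpl36al, Rps21 and Rps25, and a peak there can belong to either gene.

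The 4 core genes on the X chromosome had fewer peaks than the 73 on autosomes. Of their 48 gene and list pairs 36 held a peak (75%), beside 820 of 876 autosomal pairs (93.6%). Over all protein-coding genes the shares were 25.2% for the X chromosome and 58.3% for autosomes. None of the 4 reached all 12 lists. Rpl36a had H3K27ac only after SNA (345 bp), Rpl39 after SNA (462 bp) and Lam (339 bp), Rpl10 in all but Sham (383 to 664 bp), and Rps4x in all but DCA (333 to 504 bp). In ATAC, Rpl10, which encodes a protein added late to the large subunit, had 725, 1099, 938 and 1151 bp after Sham, SNA, Lam and DCA. Rpl39 had 697, 475, 598 and 565 bp, and Rpl36a 358, 591, 639 and 296 bp. The sex of the mice is not given in the labels used here.

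The paralogs and retrocopies fell into separate sets. Rpl3l, best known from muscle, had a peak in all 12 lists, but the strongest one lay at or beyond its far end each time, where an end of Msrb1 is within 1 kb. These values thus do not describe the start of Rpl3l. Rpl22l1, Rpl36al, Rpl7l1 and Rps27l each had a peak in 11 lists and Rpl37rt in 10. Rpl22l1, the paralog of Rpl22, had among the strongest ATAC peaks of all members, with a fold of 8.3 after Sham, 8.96 after SNA, 7.59 after Lam and 6.69 after DCA. Rps27l, which p53 activates, had ATAC peaks of 1267, 1225 and 1312 bp after Sham, SNA and Lam and none after DCA. Rpl7l1 had no H3K27ac peak after DCA. Its strongest one after Sham (fold 3.89) covered the start and that after SNA (5.18) lay 154 bp inside the gene, whereas that after Lam (18) lay 519 bp beyond the far end, so the folds belong to different sites. An end of 2310039H08Rik is within 1 kb of Rpl7l1.

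The other 7 had no H3K9ac and no H3K27ac peak in any list. Rpl31-ps12, Rpl34-ps1 and Rps27rt also had no ATAC peak. Rpl10l, the retrocopy of Rpl10 that serves the testis, had ATAC peaks of 593 bp after Sham, 332 bp after SNA and 339 bp after DCA. Rpl39l, also known from the testis, had 1 ATAC peak of 204 bp after Sham, Rpl32l had 1 of 261 bp after SNA and Rps23rg1 had 1 of 587 bp after DCA. The highest percentile any of these reached was 77.6, for Rpl10l after DCA. These 7 thus lacked acetylation peaks, while 4 of them held open sites in 1 to 3 lists.

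Ribosomal protein loci are short and crowded. The core genes had a median length of 3175 bp, beside 17169 bp for all genes, and lay on 19 chromosomes. Of the 90 members, 30 hold snoRNA genes (33.3%, beside 1.7% of all genes), 59 snoRNA genes in all, as in Rps2, Rpl17 and Rps12. Another gene's end lay within 1 kb of 32 members (35.6%, beside 24.8%), and a peak there can belong to either gene. The gene table also lists 309 ribosomal protein pseudogenes. How reads with several matches were treated is not given in the sources used here, so peaks of members with near-identical copies are uncertain. A pseudogene named after the gene is listed for 62 of the 77 core genes, with a median of 2 per gene and a highest count of 23, for Rpl31 and Rps12. Rps2 has 12 and Rpl17 has 11, the core genes with peaks in the fewest lists, but Rps12 and Rpl21 (15) had peaks in all 12 lists. The part of such copies in the missing peaks was not tested.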

How the data were processed

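The 16 peak lists are those the authors deposited, 1 per assay and surgery, with the replicates of a condition pooled per the labels. Coordinates are on mm10, per the submitters' processing notes. How reads were aligned, peaks called and reads with several matches handled is not given in the sources used here. Each deposited list gives a position, a fold, a −log10 p-value and a −log10 q-value per peak. The authors' fold and p-values were used to rank, filter and describe peaks within a list and to recover the background pile-up. Folds are printed as deposited and were not brought to a common scale across lists. Of ATAC rows that repeat an interval, the one with the highest −log10 p was kept.

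Genes came from the RefSeq table for GRCm38.p6, and strands and promoters from the RefSeq promoter table, which holds 69 of the 90 members. A peak counted where at least 1 base lay within 1000 bp of a gene end. Depth was taken as the background pile-up that makes the deposited fold and p-values of 2000 peaks per narrow list fit a Poisson model, within a tolerance of 0.003. Overlap counting, depth recovery and motif search were tested on simulated data. Tools were Python 3.11.15 with pandas 2.3.3, numpy 2.4.6, scipy 1.17.1 and matplotlib 3.10.9.

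Replicates are pooled, so no test and no error between surgeries was possible. The members, the comparison lists and the alternatives were chosen with earlier results of these data known. Genes named in the text are those without a peak in the 12 narrow lists, all paralogs, the 5 widest per assay, members that differed the same way in both injuries or in comparisons with 10 or fewer such members, members with H3K27me3 in at least 2 lists, and genes fixed by role. Single values of some members that the rule names are not reported here. Members of the H3K27ac patterns, Rps15 and the pseudogene counts were named after their values were seen. Alternatives were a 5000 bp window, peaks covering the end, the start end alone, q-value limits of 0.05 and −log10 q of 5, lists cut to equal size, 200 bp of overlap, and core members with no other gene end near.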

Additional observations from a re-analysis of the deposited data

Results flagged for a closer look

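The members' H3K27ac peaks differed in opposite directions in the 2 injuries. After SNA the net change against Sham was 12 members more with a gene-end peak, and after DCA against Lam it was -16 members. The difference between these was not tested, since each rests on 1 list per surgery. All protein-coding genes differed likewise, with 2945 genes having a peak only after SNA and 620 only after Sham, and 525 only after DCA and 2312 only after Lam. The 2 controls also differed from each other: 15 members had a peak only after Lam and 1 only after Sham (all genes 2839 and 522). Sham and DCA were the smallest H3K27ac lists, with 43803 and 46489 peaks. SNA had 75824 and Lam 67311.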

How the results depend on the processing

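No paired analysis was possible because each list pools the replicates of its condition, and for the same reason no replicate could be left out. The share of the 90 members with a gene-end peak in a narrow list moved by less than 1.5 times in 12 of 12 lists under 6 of the 8 alternatives. Requiring the peak to cover the gene end lowered it to 25.6% after Sham, 20% after SNA, 15.6% after Lam and 42.2% after DCA in H3K9ac, and to 31.1%, 26.7%, 30% and 21.1% in H3K27ac, since these marks flank the start. The median H3K27ac width after Lam was then 1067 bp. A −log10 q of at least 5 left H3K9ac in 22.2% of members after Sham, 57.8% after SNA and 46.7% after Lam. Shares over all genes under these alternatives are not given here. The other medians of width moved by less than 1.5 times under all 8 alternatives.

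Counts of members with a peak in only 1 list of a pair rest on few genes and moved more. Under a −log10 q of at least 5 the share was 42.2% for SNA, 40% for DCA and 33.3% for Lam, each against its control or Sham, in H3K9ac, 35.6%, 41.1% and 40% in H3K27ac, and 8.89% (DCA) and 7.78% (Lam) in ATAC. Where the peak had to cover the end it was 16.7%, 33.3% and 18.9% in H3K9ac, 28.9% (SNA) and 34.4% (Lam) in H3K27ac and 5.56% (Lam) in ATAC. With the start end alone it was 7.25% for each pair in ATAC. With a window of 5 kb it was 4.44% (SNA) and 3.33% (Lam) in H3K9ac and 1.11% (DCA) in ATAC. At equal list sizes it was 11.1% for DCA against Lam in H3K9ac, with 200 bp of overlap 5.56% for SNA against Sham, and among core members with no other gene end near 2.04% (SNA), 2.04% (DCA) and 0% (Lam) in ATAC. The cause of these shifts was not tested. Shares over all genes at these settings are not given here, so the shares of members have no background to be read against.

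H3K27me3 depended on the settings throughout. At q-value limits of 0.05 and of −log10 q of at least 5 the share with an interval was 0% after Sham, SNA and Lam, as was the share in only 1 list of each pair, and few of all genes passed the first limit. A window of 5 kb gave 28.9%, 20%, 37.8% and 4.44% after Sham, SNA, Lam and DCA, with 22.2%, 37.8% and 37.8% in only 1 list of the 3 pairs. Where the interval had to cover the end the shares were 3.33% after Sham and 4.44% after Lam, and 5.56%, 4.44% and 5.56% for the pairs. The start end alone gave 7.25% after Lam, and 7.25%, 7.25% and 8.7% for the pairs. Equal list sizes gave 1.11% after SNA and 6.67% after Lam, with 6.67% (DCA) and 11.1% (Lam) for the pairs. Core members with no other gene end near gave 6.12% after Sham and 0% after SNA, and 6.12% for SNA against Sham. Apart from the q-value limit of 0.05, no share over all genes is given here at these settings.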

Other observations

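Other genes of the translation machinery gave few changes in H3K9ac between SNA and Sham. Of the 78 mitochondrial ribosomal protein genes, 1 had an H3K9ac peak only after SNA and 2 only after Sham. For the 25 ribosome assembly genes these were 2 and 0, for the 21 TOP-type translation genes 0 and 0, and for the 90 members 6 and 2, beside 5.44% and 3.86% of all genes. In H3K27ac, 13 and 3 of the mitochondrial genes, 5 and 2 of the assembly genes and 7 and 0 of the TOP-type genes had a peak in only 1 of these lists, beside 14 and 2 of the members and 13.5% and 2.83% of all genes. The groups are small and the lists have no replicates, so none of these counts was tested against another.

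The widest H3K9ac interval of any member was at Rps15, a small subunit gene, with 3332 bp after DCA. The widest H3K9ac interval of Rps15 measured 775 bp after Sham, 944 bp after SNA and 843 bp after Lam. In H3K27ac it measured 1479 bp after Sham, 3064 bp after SNA, 722 bp after Lam and 1688 bp after DCA. The H3K27ac interval after Sham lay wholly beyond the far end of the gene. That after Lam lay inside the gene and that after DCA covered its start, so these widths belong to different sites. Both intervals of 3332 and 3064 bp were not the strongest at the gene, which measured 1293 bp after DCA in H3K9ac and 791 bp after SNA in H3K27ac.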
